A study of Zea mays with 12 samples.

Results

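Alpha-expansins are secreted proteins that loosen the walls of growing plant cells without cutting wall polymers, and they act best at acid pH. By letting the wall network slip under turgor they permit cell enlargement, and each plant carries many expansin genes that differ in where and when they are used. In the maize primary root the apical part of the elongation zone keeps elongating at low water potentials, and expansins have been studied there as part of that growth response.

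Transcripts of 3 alpha-expansin genes were followed, of 42976 features in the table: Zm00001d043047 and Zm00001d018031, which the study describes as expansin A1, and Zm00001d038476, described as expansin A8. They were chosen by their measured changes at 48 h of water stress (WS48 against WW48 and against WW24). The study describes 5 expansin A genes among the transcripts it selected at that time, and the 3 chosen had the smallest adjusted p of the 5 in WS48 vs WW48. At the edge of that choice, Zm00001d018031 inside it had a log2 change of 1.54, and a further expansin A1 gene outside it, Zm00001d052264, had 1.53. The choice did not follow the size of the change. Expansin A7 (Zm00001d047353), also outside it, had the largest log2 change of the 5, at 2.79 in WS48 vs WW48 and 1.90 in WS48 vs WW24. Values in those 48 h comparisons are therefore given as description, without a test. The WS24 libraries took no part in the choice.

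RNA came from dark-grown primary root tips of maize genotype FR697, the same in every group, with 3 libraries per group. The water-stressed groups WS24 and WS48 were harvested 24 and 48 h after seedlings were moved to dry vermiculite (-1.6 MPa), and the well-watered groups WW24 and WW48 at 24 and 48 h in wet vermiculite (-0.02 MPa). Stressed samples were 7 mm tips and well-watered samples 12 mm tips, each holding the whole elongation zone, so treatment and segment length cannot be told apart. Tips were pooled within a sample, and the study's methods state that the replicates came from independent experiments. In the design WW24 matches WS48 in root length and WW48 matches it in age, whereas WS24 has an age-matched control only.

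The libraries held 40005384 to 54863708 counts on features. WS24 replicate 3 stood apart in that 23.1% of its entries were not aligned, against 12.7 to 15.0% in the other 11 libraries. The log2 changes of the 3 alpha-expansins that use WS24 are also given without it. Zm00001d018031 was the least covered, with 591 to 1001 counts in stressed and 198 to 303 counts in well-watered libraries. Zm00001d043047 had 18996 to 28466 counts in stressed and 3103 to 6642 in well-watered libraries, and Zm00001d038476 had 3350 to 4815 in stressed and 979 to 1511 in well-watered libraries. Abundance is given as CPM, the count as a rate over the library total, scaled between libraries by TMM factors. CPM is not corrected for transcript length, so levels are compared between samples of a gene. The sums over marker genes further below add up such CPM, so the part each gene gives to a sum also reflects its transcript length.

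**Figure D1:**
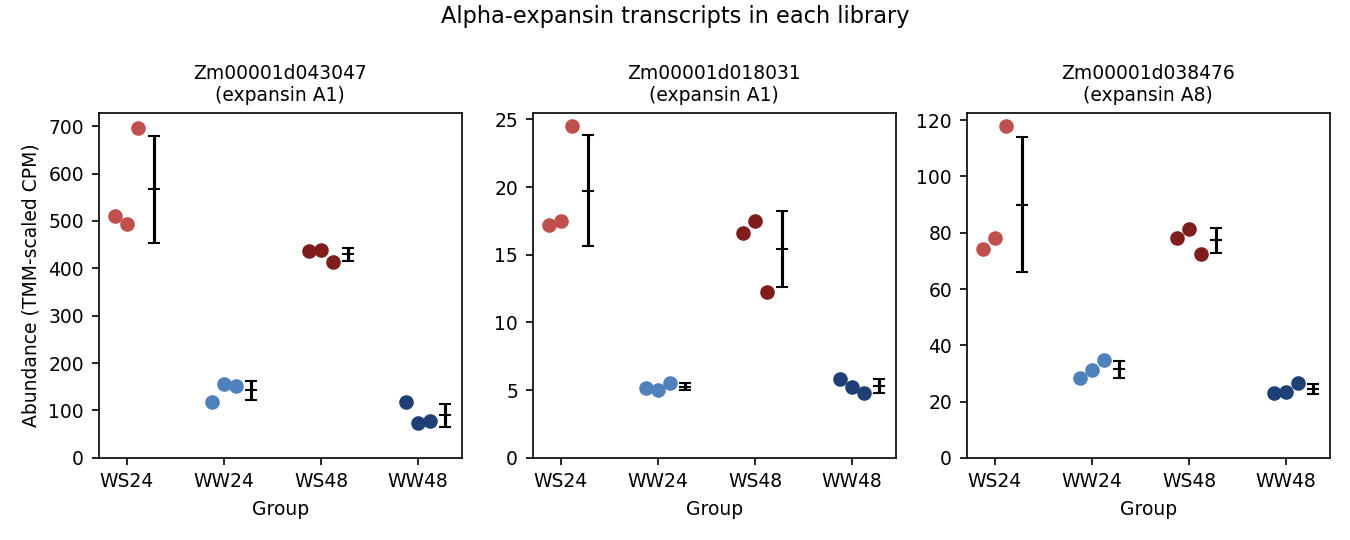
Abundance of each alpha-expansin (TMM-scaled CPM, linear axis from 0) in the 12 libraries, by group. Points are libraries, and the tick with bar beside them is the mean with its SD (n = 3). Every stressed library lies above every well-watered library, in genes that were chosen on the WS48, WW24 and WW48 libraries. WS24 replicate 3 is the highest point in each panel, at 696.3, 24.48 and 117.8 CPM.

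The first question was whether the 3 transcripts had already increased in abundance after 24 h of stress. All 3 had, by between 2.86-fold and 3.98-fold. Zm00001d043047 (expansin A1) had 510.6, 492.8 and 696.3 CPM in WS24 tips, against 118.8, 155.8 and 152.1 CPM in WW24 tips. Every WS24 library stood above every WW24 library, and the third WS24 library was the highest of the 12. The group means were 567 ± 113 CPM in WS24 and 142 ± 20.4 CPM in WW24 (SD, n = 3 each), a log2 change of 1.99 (SE 0.18, 95% interval 1.60 to 2.38, edgeR adjusted p = 2.53e-06).

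Zm00001d018031, the second expansin A1 gene, had 17.22, 17.5 and 24.48 CPM in WS24 tips, against 5.192, 5.012 and 5.52 CPM in WW24 tips. The groups did not overlap, and the WW24 libraries lay close together whereas the third WS24 library was again the highest. It averaged 19.7 ± 4.11 CPM in WS24 and 5.24 ± 0.258 CPM in WW24 (SD, n = 3 each), a log2 change of 1.91 (SE 0.17, 95% interval 1.55 to 2.27, edgeR adjusted p = 1.76e-06). Zm00001d038476 (expansin A8) had 74.07, 78.22 and 117.8 CPM in WS24 tips, against 28.49, 31.31 and 34.61 CPM in WW24 tips. Here too the groups did not overlap and the third WS24 library was the highest. Expansin A8 averaged 90.0 ± 24.1 CPM in WS24 and 31.5 ± 3.06 CPM in WW24 (SD, n = 3 each), a log2 change of 1.52 (SE 0.15, 95% interval 1.19 to 1.84, edgeR adjusted p = 5.26e-06).

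A transcript was called where its adjusted p over the 26746 features tested was at most 0.05 and its log2 change at least 1 in size. In WS24 vs WW24, 3 of the 3 alpha-expansins were called increased, beside 9.27% of all features tested (2480 of 26746). The WW24 libraries also served as a control in choosing the genes, so this comparison is independent of the choice on the stressed side only. The study reports that nearly all of the increased transcripts it selected responded alike at the earlier stress time. A count of 3 of 3 was therefore likely for genes so chosen, and the share of all features is no yardstick for it. Nothing particular to alpha-expansins is read from that count. The changes of the 3 genes were above most of the range without being extreme. Of features tested, 4.56% had a higher log2 change than Zm00001d043047, 4.84% a higher one than Zm00001d018031 and 6.66% a higher one than expansin A8. The 95% intervals of the 3 changes overlapped, and the difference between genes was not tested. In such bulk tips more cells of an expressing type and more transcript per cell cannot be told apart.

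WS24 replicate 3 lay 0.32, 0.33 and 0.42 log2 units above its group mean for Zm00001d043047, Zm00001d018031 and expansin A8. Without it the WS24 vs WW24 log2 changes were 1.83 (edgeR adjusted p = 9.11e-06), 1.73 (adjusted p = 4.24e-06) and 1.28 (adjusted p = 1.19e-06) in that order of genes, and all 3 calls held.

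At 48 h, where the genes were selected, stressed tips again had the higher values. Zm00001d043047 had 435.6, 438.6 and 414.2 CPM in WS48 tips, against 117.3, 74.51 and 76.75 CPM in WW48 tips. The stressed libraries varied little, while the first WW48 library was the highest of its group. The log2 changes of Zm00001d043047 were 2.26 in WS48 vs WW48 and 1.59 in WS48 vs WW24. Zm00001d018031 had 16.58, 17.46 and 12.23 CPM in WS48 tips, against 5.844, 5.259 and 4.775 CPM in WW48 tips. The third WS48 library was the lowest stressed library of this gene, and still above every well-watered one. Its log2 changes were 1.54 against WW48 and 1.56 against WW24. Expansin A8 (Zm00001d038476) had 78.17, 81.35 and 72.53 CPM in WS48 tips, against 23.17, 23.51 and 26.44 CPM in WW48 tips. The groups were tight and far apart, with log2 changes of 1.67 against WW48 and 1.30 against WW24. All 3 genes passed the call rule in both comparisons, as the choice required. Of all features tested, 7.20% were called increased in WS48 vs WW48 and 7.84% in WS48 vs WW24.

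Across both times the separation of treatments had no exception. The lowest of the 6 stressed libraries stood above the highest of the 6 well-watered libraries by 2.66-fold for Zm00001d043047 (414 against 156 CPM), by 2.09-fold for Zm00001d018031 (12.2 against 5.84 CPM) and by 2.10-fold for expansin A8 (72.5 against 34.6 CPM). The WS48, WW24 and WW48 libraries chose the genes, so this is a description. The share of all features that separate likewise was not counted, and nothing is read from the separation.

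The second question was whether abundance moved on between 24 and 48 h of stress. In WS48 vs WS24, 0 of the 3 alpha-expansins were called by edgeR or by DESeq2, beside 0.909% of all features called by edgeR in either direction. Of the 3, 2 had an unadjusted edgeR p under 0.05. The share of all features at that level was not counted, so nothing is read from it. The WS48 libraries took part in choosing the genes, so the comparison is independent of the choice on the WS24 side only. Zm00001d043047 averaged 429 ± 13.3 CPM in WS48 and 567 ± 113 CPM in WS24 (SD, n = 3 each), a log2 change of -0.40 (SE 0.17, 95% interval -0.78 to -0.02, edgeR adjusted p = 0.302). Its 3 WS48 libraries lay below its 3 WS24 libraries. For Zm00001d018031, with 15.4 ± 2.80 CPM in WS48 and 19.7 ± 4.11 CPM in WS24 (SD, n = 3 each), the libraries overlapped and the log2 change was -0.36 (SE 0.16, 95% interval -0.69 to -0.02, edgeR adjusted p = 0.308). Expansin A8 averaged 77.4 ± 4.47 CPM in WS48 and 90.0 ± 24.1 CPM in WS24 (SD, n = 3 each) with overlapping libraries, a log2 change of -0.22 (SE 0.14, 95% interval -0.53 to 0.09, edgeR adjusted p = 0.544). Without WS24 replicate 3 these log2 changes were -0.23 for Zm00001d043047, -0.18 for Zm00001d018031 and 0.01 for expansin A8, so the sign for expansin A8 rested on that library.

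**Figure D2:**
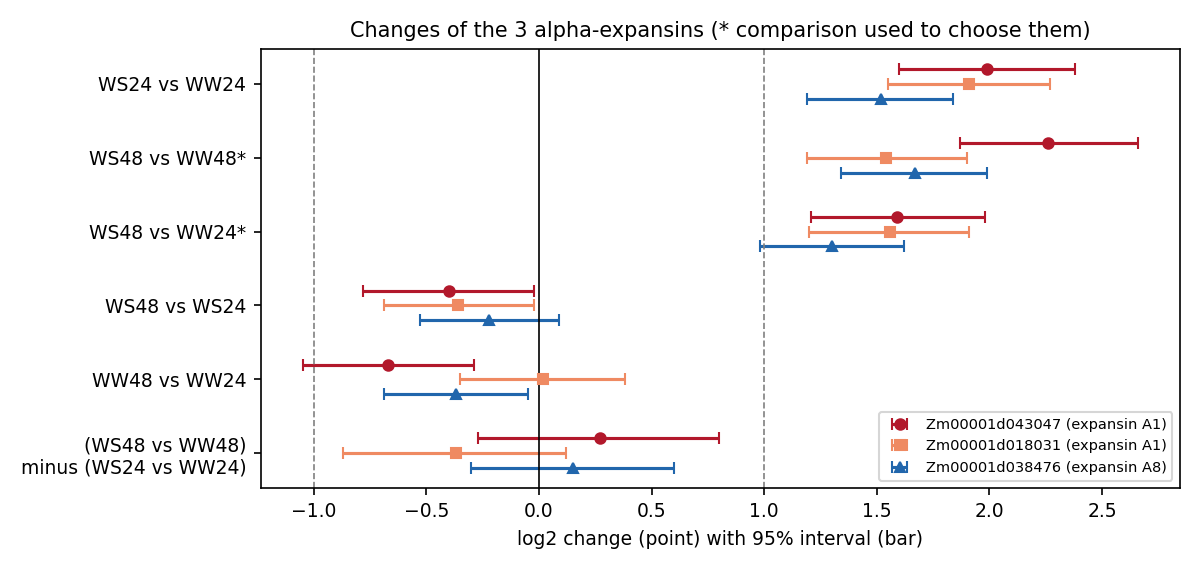
log2 changes (x axis) of the 3 alpha-expansins in each comparison (rows). Points are edgeR estimates, bars their 95% intervals, and dashed lines mark a change of 1 in size. Asterisks mark the comparisons on which the genes were selected. The WS24 vs WW24 intervals lie wholly above 1, from 1.19 to 2.38, and those of WS48 vs WS24 wholly above -1.

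In well-watered tips the means of the 3 genes did not follow a single course. Both well-watered groups served as controls when the genes were chosen, so WW48 vs WW24 is given as description, without a test. None of the 3 passed the call rule, beside 0.980% of all features called in either direction, and nothing is read from that count. Zm00001d043047 averaged 89.5 ± 24.1 CPM in WW48 and 142 ± 20.4 CPM in WW24 (SD, n = 3 each), a log2 change of -0.67 (SE 0.18). The groups did not overlap but came close, since the highest WW48 library had 117.3 CPM and the lowest WW24 library 118.8 CPM. Without WW48 replicate 1, the highest of its group, the log2 change was -0.91. Expansin A8 averaged 24.4 ± 1.80 CPM in WW48 and 31.5 ± 3.06 CPM in WW24 (SD, n = 3 each), also without overlap, a log2 change of -0.37 (SE 0.15). Zm00001d018031 averaged 5.29 ± 0.535 CPM in WW48 and 5.24 ± 0.258 CPM in WW24 (SD, n = 3 each), with libraries that overlapped and a log2 change of 0.02 (SE 0.17).

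Ordered by mean abundance from low to high, Zm00001d043047 ran WW48, WW24, WS48, WS24, and no neighbouring pair of groups overlapped. Zm00001d018031 ran WW24, WW48, WS48, WS24, and the only gap was between the well-watered and the stressed groups. Expansin A8 ran WW48, WW24, WS48, WS24, with overlap between the stressed groups only. These orders are description, and the share of all features with such gaps was not counted.

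The difference of the stress response between times, (WS48 vs WW48) minus (WS24 vs WW24), was called for 0 of the 3 genes by edgeR or by DESeq2. By edgeR, 0.385% of all features were called in either direction. An unadjusted edgeR p under 0.05 was found for 0 of the 3, and the share of all features at that level was not counted. The difference is given here per gene. It was 0.27 on the log2 scale for Zm00001d043047 (SE 0.25, 95% interval -0.27 to 0.80, edgeR adjusted p = 0.686), -0.37 for Zm00001d018031 (SE 0.23, 95% interval -0.87 to 0.12, adjusted p = 0.518) and 0.15 for expansin A8 (SE 0.21, 95% interval -0.30 to 0.60, adjusted p = 0.807). The WS48, WW48 and WW24 libraries in this difference took part in choosing the genes, and only WS24 did not. With 3 libraries per group, changes of the response within these intervals remain possible, and no detection limit was computed for this difference. Without WS24 replicate 3 the difference was 0.43 for Zm00001d043047, -0.20 for Zm00001d018031 and 0.38 for expansin A8, and none passed the call rule. As a description, the log2 change at 24 h was 88.2% of that at 48 h for Zm00001d043047, 124% for Zm00001d018031 and 91.0% for expansin A8. Those percentages include WS24 replicate 3 and were not computed without it. All of these comparisons share groups and are not independent of each other.

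Expansin genes were found by their descriptions, 17 in all. Descriptions were at hand only for transcripts already selected for later changes on these libraries, so the counts that follow are not independent evidence of direction. In WS24 vs WW24 the median log2 change was 1.91 over the 5 expansin A genes, against 0.01 over all features tested, and 5 of 5 were called increased, beside 9.27% of all features. Of the expansin A genes outside the chosen 3, the A1 gene Zm00001d052264 had 8.137, 7.021 and 9.368 CPM in WS24 tips, against 2.149, 2.101 and 2.428 CPM in WW24 tips. Those groups were well separated, with a log2 change of 1.87 (SE 0.17, edgeR adjusted p = 2.51e-06). Expansin A7, Zm00001d047353, whose Arabidopsis namesake is active in root hair cells, had 10.9, 6.024 and 13.01 CPM in WS24 tips, against 0.5745, 0.962 and 0.5726 CPM in WW24 tips. It had the largest change of the 5, at 3.83 (SE 0.32, edgeR adjusted p = 1.29e-06).

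Expansin A7 was also the only one of the 5 called between the stress times, where 0.909% of all features were called in either direction. It had 2.453, 2.636 and 2.752 CPM in WS48 tips, all below every WS24 library. Its WS48 vs WS24 log2 change was -1.93 (SE 0.28, edgeR adjusted p = 0.00488). In a test against the null hypothesis that the log2 change was at most 1 in size (glmTreat), that call was lost with an adjusted p of 0.390. The difference of its stress response between times was -1.04 (SE 0.46, edgeR adjusted p = 0.332), which was not called.

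**Figure D3:**
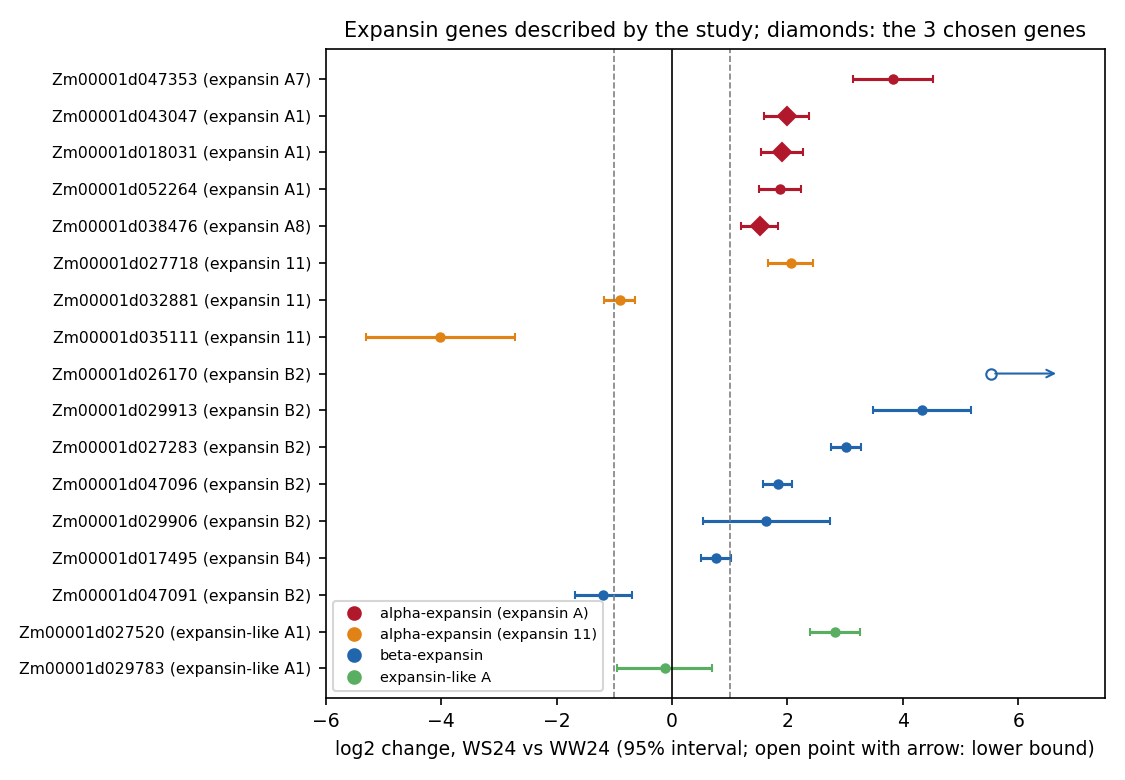
log2 change in WS24 vs WW24 (x axis) of the 17 expansin genes described by the study (rows), coloured by subfamily, with 95% intervals as bars and dashed lines at a change of 1 in size. Diamonds are the 3 chosen alpha-expansins, at 1.99, 1.91 and 1.52. The open point with an arrow is a lower bound of 5.53 for Zm00001d026170, which had 0 counts in WW24. The 5 expansin A genes all lie above 1, whereas the 3 expansin 11 genes lie on both sides of 0.

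The genes described as expansin 11, also alpha-expansins, did not share that direction. Of 3, 1 was called increased and 1 decreased in WS24 vs WW24, where 5.64% of all features were called decreased. Zm00001d027718 averaged 36.8 ± 10.9 CPM in WS24 and 8.81 ± 0.798 CPM in WW24 (SD, n = 3 each), a log2 change of 2.06 (SE 0.18, edgeR adjusted p = 1.91e-06). Zm00001d035111 was scarce, at 0.134 ± 0.0132 CPM in WS24 and 2.22 ± 1.10 CPM in WW24 (SD, n = 3 each), a log2 change of -4.02 (SE 0.59, edgeR adjusted p = 1.44e-04). Zm00001d032881 had 12.71, 13.34 and 17.71 CPM in WS24 tips, against 24.6, 27.49 and 30.33 CPM in WW24 tips. Its groups did not overlap, but the log2 change of -0.91 (SE 0.12, edgeR adjusted p = 7.91e-05) stayed under the fold threshold. Without WS24 replicate 3 it was -1.07 (adjusted p = 1.98e-05) and called decreased. At 48 h, as description, 1 of the 3 passed the call rule as increased and 2 as decreased against both controls, where 6.88% of all features were called decreased in WS48 vs WW48 and 4.79% in WS48 vs WW24.

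Among beta-expansins, the related group that is abundant in grasses, 5 of 7 genes were called increased and 1 decreased in WS24 vs WW24, beside 9.27% and 5.64% of all features, with a median log2 change of 1.83. The expansin B2 gene Zm00001d026170 had 142 counts over the 3 WS24 libraries and 0 over the 3 WW24 libraries, and with WW24 set to a limit of 3 counts over its libraries, it was at least 46.2-fold higher in WS24. The B2 gene Zm00001d047091 had the opposite sign, a log2 change of -1.20 (SE 0.23, edgeR adjusted p = 0.00102), which was not called by glmTreat (adjusted p = 0.585). Of 2 expansin-like A1 genes, Zm00001d027520 was called increased at 2.82 (SE 0.20, edgeR adjusted p = 2.82e-07), and Zm00001d029783 had -0.13 (SE 0.38, adjusted p = 0.815).

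Other wall genes from the same descriptions did not all move the way of the expansins. Xyloglucan endotransglucosylases cut and rejoin xyloglucan, the main hemicellulose of many primary walls, and of 7 described 6 were called decreased and 1 increased in WS24 vs WW24, with a median log2 change of -1.38. Of all features, 5.64% were called decreased and 9.27% increased. Zm00001d014613 had -1.63 (SE 0.09, edgeR adjusted p = 3.84e-08) and Zm00001d047970 had -1.86 (SE 0.15, adjusted p = 1.04e-06). Plasma membrane proton pumps export protons and so acidify the wall, and 2 of 2 described were called increased beside 9.27% of all features, Zm00001d033552 (H(+)-ATPase 11) at 4.48 (SE 0.33, edgeR adjusted p = 4.21e-07) and Zm00001d045122 (H(+)-ATPase 6) at 4.22 (SE 0.37, adjusted p = 1.89e-06). The 2 pump transcripts were scarce in WW24, at means of 0.521 and 0.322 CPM in that order, and averaged 11.8 and 5.97 CPM in WS24. Both lists were also drawn from transcripts the study selected at 48 h, so proton pump genes outside that selection were not examined.

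Marker genes for zones that the segments could hold in different shares moved as well, and their part in the alpha-expansin changes was not tested. Of 7 genes listed by description for dividing cells, 3 were called increased and 3 decreased in WS24 vs WW24. Of all features, 9.27% were called increased and 5.64% decreased. Whether each of the 7, histone H1-3 among them, marks dividing cells in stressed tips was not tested. Their summed levels were 126 to 128 CPM in WS48 and 112 to 128 CPM in WW48. At 24 h they summed to 145 to 162 CPM in WS24 and 113 to 114 CPM in WW24. Of that sum histone H1-3 (Zm00001d045478) alone gave 90.1 ± 5.79 CPM in WS24 and 9.70 ± 6.60 CPM in WW24 (SD, n = 3 each). The other 6 genes summed the opposite way, to 59.7 to 65.3 CPM in WS24 and 97.0 to 107 CPM in WW24. At 48 h they gave 58.1 to 64.1 CPM in WS48 and 104 to 114 CPM in WW48. Most of it came from H2AX (means of 19.3 CPM in WS24, 46.1 in WW24) and origin recognition complex protein 6 (16.2 and 34.4 CPM). Within the 6, cyclin d5;1 (WS24 vs WW24 log2 change 3.01) and cyclin D4;1 (1.51) were called increased, so the list had no single direction. The 2 genes listed by description for root hairs are expansin A7 and Zm00001d052961 (Root hair defective 3 GTP-binding protein). They summed to 35.0 to 49.5 CPM in WS24 and 1.35 to 1.94 CPM in WW24. Their sums were 17.3 to 21.0 CPM in WS48 and 0.908 to 1.85 CPM in WW48. Zm00001d052961 gave most of the WS24 sum, at a mean of 30.6 CPM against 9.98 CPM for expansin A7. Whether Zm00001d052961 marks root hair cells here was not tested. The single phloem gene lay at 0.573 to 0.978 CPM in WS24, 1.90 to 4.55 CPM in WW24, 0.446 to 0.745 CPM in WS48 and 2.45 to 3.87 CPM in WW48. These markers, too, are known only through descriptions of transcripts selected by the study, and no group had all of a list at 0.

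To see how alike the 3 genes were, each was set to a mean of 0 on the log2 CPM scale and compared over the 12 libraries by the root mean square difference between profiles. Zm00001d018031 and expansin A8 were the nearest pair, at 0.211 log2 units, with 12 features nearer to Zm00001d018031 than expansin A8 was. Zm00001d043047 lay 0.370 from Zm00001d018031, with 57 features nearer, and 0.365 from expansin A8, with 49 nearer. The 3 profiles share their libraries, including WS24 replicate 3, and spanned 3.22 log2 units for Zm00001d043047, 2.35 for Zm00001d018031 and 2.34 for expansin A8. The WS48, WW24 and WW48 libraries chose the 3 genes, so part of their likeness followed from the choice. The nearest features below were picked by the same distance, and both are given as description.

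Among 17167 features with a mean log2 CPM of at least 2, the nearest profile to Zm00001d043047 was Zm00001d013409, a homeobox protein, at 0.150 log2 units. It averaged 11.2 CPM in WS24, 2.69 in WW24, 8.49 in WS48 and 2.02 in WW48. Next came Zm00001d048469, beta-hydroxylase 1, a name that in Arabidopsis belongs to a carotenoid hydroxylase, at 0.195, and Zm00001d048383, a myb domain protein, of a family of DNA-binding transcription factors, at 0.203. The nearest to Zm00001d018031 was Zm00001d002579, a protein with the uncharacterised domain DUF604, at 0.134, with 57.4 CPM in WS24, 14.2 in WW24, 46.0 in WS48 and 13.5 in WW48. The second was another expansin, the B2 gene Zm00001d047096, at 0.146, with 163 CPM in WS24, 46.0 in WW24, 129 in WS48 and 50.2 in WW48. The third, Zm00001d028998, is described as a hydroxyproline-rich glycoprotein, a class of structural wall proteins, at 0.164. For expansin A8 the nearest were Zm00001d010912, with no description, at 0.144, MSTRG.11684, an assembled transcript with no description, at 0.179, and Zm00001d048201, myo-inositol-1-phosphate synthase 2, which makes the precursor of inositol, at 0.180. Zm00001d010912 averaged 31.7 CPM in WS24, 9.94 in WW24, 28.6 in WS48 and 9.63 in WW48.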

How the data were processed

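Maize root tip RNA was sequenced by the authors as strand-specific paired-end libraries, aligned with HISAT2 (1.0 in the submitters' processing notes) to B73 RefGen_v4 extended by an assembly of the genotype, and counted with HTSeq 0.6.1. No source used here gives the strand option of HTSeq, so reads of overlapping or antisense genes may be shared. How reads of near-identical expansin copies were assigned or dropped was not checked. The authors deposited raw counts per feature beside normalized columns. The deposited normalized columns, held here as a score of unstated scale, were not used. Rows that name no gene stayed out of library sizes and tests: unaligned entries (12.7 to 23.1%), low alignment quality (3.20 to 3.70%), no feature (1.87 to 2.25%) and ambiguous (0.942 to 1.08%).

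Counts were fitted with edgeR 4.0.16 in R 4.3.3 (TMM, filterByExpr with a minimum count of 10, 26746 features kept, quasi-likelihood F-tests, Benjamini-Hochberg adjustment over all of them), with 1 mean per group and 12 libraries in 1 fit. Features were called at adjusted p up to 0.05 with a log2 change of 1 or more in either direction. SE is the log2 change divided by the root of its F. Profiles used a prior count of 2. The fit was tested on simulated data. Replicates of a group all differed by more than counting noise (chi-square per gene 5.48 to 34.5).

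The genes and lists were chosen with earlier results of these data known. Named genes were the 3 alpha-expansins, expansins described by the study where they differ in direction or lie at the end of their subfamily, the 3 features nearest in profile to each, and the 2 wall genes per list with the smallest adjusted p. Zm00001d052264 and histone H1-3 (Zm00001d045478) were added after their values were seen. Descriptions come from the study's list of changed transcripts, and the authors' own fold changes and p-values there were not used. Chromosomal positions and sequences of the genes were not used here. Alternatives were other scalings (RLE, none), other filters (at least 1 count, 3 CPM in 1 library), DESeq2 1.42.0, glmTreat, fits of the groups compared alone, a replicate block and leaving out each library.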

Additional observations from a re-analysis of the deposited data

Results flagged for a closer look

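The difference of the stress response between times passed the call rule for the expansin 11 gene Zm00001d032881, but not under all alternatives. It had 10.11, 9.164 and 10.18 CPM in WS48 tips, against 35.59, 39.07 and 41.93 CPM in WW48 tips, a log2 change of -1.98, and its log2 change in WS24 vs WW24 was -0.91. The difference of the 2 changes was -1.07 (SE 0.18, edgeR adjusted p = 0.0235), lower at 48 h. The study selected the gene for its change at 48 h, so this test draws on values that selected it and is no independent evidence of a difference. The call was lost without WW24 replicate 1 (adjusted p = 0.0283, change just under the fold threshold), WW24 replicate 2 (adjusted p = 0.0571), WS24 replicate 3 (-0.92, adjusted p = 0.0248), WS48 replicate 1 (adjusted p = 0.0769) or WS48 replicate 2 (adjusted p = 0.0771), and with glmTreat (adjusted p = 1).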

How the results depend on the processing

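All 3 alpha-expansins were called increased in WS24 vs WW24 under every alternative run, including each left-out library. Under the same alternatives 0 were called in WS48 vs WS24, WW48 vs WW24 or the difference between times. In the main fit those comparisons called 0.909%, 0.980% and 0.385% of all features, so nothing is read from the 0 counts. In WW48 vs WW24, under some alternatives, only the fold threshold kept Zm00001d043047 from a call. The same held for expansin A8 at least without WS24 replicate 3, at a log2 change of -0.37. The WS24 vs WW24 log2 changes of the 3 genes ranged from 1.83 to 2.09, 1.73 to 2.00 and 1.28 to 1.64 without 1 library (Zm00001d043047, Zm00001d018031, expansin A8). Signs of uncalled log2 changes turned for Zm00001d018031 in WW48 vs WW24 (-0.06 to 0.09 without 1 library, below 0 without WW24 replicate 2, at -0.01, or WW48 replicate 1), expansin A8 (Zm00001d038476) in WS48 vs WS24 (-0.35 to 0.01, above 0 without WS24 replicate 3) and Zm00001d029783 in WS24 vs WW24 (-0.38 to 0.54, above 0 without WW24 replicate 1).

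Counts over all features moved more, and the cause was not tested. WS24 vs WW24 gave 3988 calls, 2427 with the filter of 3 CPM and 1864 with glmTreat. WS48 vs WS24 gave 243, and 420 with DESeq2, 8 with glmTreat, 415 with the groups compared alone and 98 to 279 without 1 library. WW48 vs WW24 gave 262, and 471 with DESeq2, 1 with glmTreat, 59 with the groups compared alone and 99 to 395 without 1 library. The difference between times gave 103, and 186 without a count filter, 426 with DESeq2, 4 with glmTreat and 13 to 215 without 1 library. Alpha-expansins called decreased in WS24 vs WW24 numbered 1 to 2 without 1 library. Same-numbered libraries did not deviate together (r of -0.5 to 0.11 over features), so replicate numbers were not taken as pairs. With the replicate block WW48 vs WW24 gave 150 calls, and no alpha-expansin call of the 3 changed.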
